A study of Homo sapiens with 4 samples.

Results

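Caspases, their inhibitors and the adaptor proteins that control them were followed through the response of lymphoma cells to interleukin-21 (IL-21) and through selection for resistance to it. The group was defined by name and held 34 genes in 9 roles. It was read from the probes that carried the gene's symbol in the platform annotation and had a value on all 4 arrays. That left 28 of the 34 genes, out of 13446 genes measured in this way. Of the 28, 16 were read by 1 probe, 10 by 2 probes and 2 by 3 probes. XIAP, APAF1, AIFM1 and RIPK3 each had a probe that was blank on at least 1 array, and no probe was named for BIRC3 or RIPK1.

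RC-K8 is an established line from diffuse large B-cell lymphoma that answers IL-21 with apoptosis, and its derivative RC-K8-R was grown out over 10 weeks under increasing amounts of the cytokine. The groups were RC-K8-R with IL-21 at 100 ng/mL for 6 h, untreated RC-K8-R, RC-K8 with the same IL-21 treatment, and untreated RC-K8. The sources used here do not say whether RC-K8-R is 1 clone, or whether IL-21 was withdrawn from it before the experiment. Each group was 1 two-colour Agilent array, with sample cDNA in Cy5 against a common human reference RNA in Cy3. With 1 array per group there is no replicate check and no test. Every difference below is between single arrays, and the only error is the SD between probes of the same gene, which does not cover differences between cultures.

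Caspases are proteases that cut after aspartate and are made as inactive precursors. Initiator caspases are switched on by gathering on an adaptor: CASP8 and CASP10 on FADD beneath a death receptor, CASP9 on APAF1 once cytochrome c has left the mitochondrion, and CASP2 on a platform that includes CRADD. They then cut executioner caspases, whose work in the nucleus includes freeing the nuclease DFFB from its inhibitor DFFA. Inhibitor of apoptosis proteins (BIRC2, BIRC3, BIRC6, NAIP and XIAP) and the inactive CASP8 relative CFLAR hold these steps back. A further branch, CASP1, CASP4 and CASP5 with the adaptor PYCARD, serves inflammasomes and pyroptosis and is best known from myeloid and epithelial cells. In B cells BCL10 and MALT1 carry the B cell receptor signal to NF-kappaB. BCL10 has a CARD domain, and MALT1 has a protease domain related to that of caspases.

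The unit throughout is the deposited log ratio of sample over reference, read as log2 and centred on each array's median. A level is this ratio for a gene on 1 array, and a difference is a level minus another level of the same gene, taken probe by probe and then as the median over the gene's probes. Counts use a 2-fold limit, which is 1 on the log2 scale in either direction. Levels of different genes come from different probes and are not set against each other. Arrays carried values for 25246 to 26555 of 31095 probes, and the SD of the centred ratios ran between 1.26 on the untreated RC-K8 array and 1.54 on the treated RC-K8-R array. Of 11 B cell markers 8 were measured, with single levels from -3.58 to 7.68. Their median levels were 2.07 (IL-21) and 1.75 (untreated) for RC-K8-R and 1.25 (IL-21) and 1.26 (untreated) for RC-K8. Taken per gene, their median difference with IL-21 was 0.22 in RC-K8-R, with 6 of 8 higher. In RC-K8 it was -0.65, with 6 of 8 lower. Medians of T and NK cell, epithelial, fibroblast and hepatocyte markers lay between -1.23 and -6.10, and those of myeloid markers between -0.73 and 0.19.

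**Figure D1:**
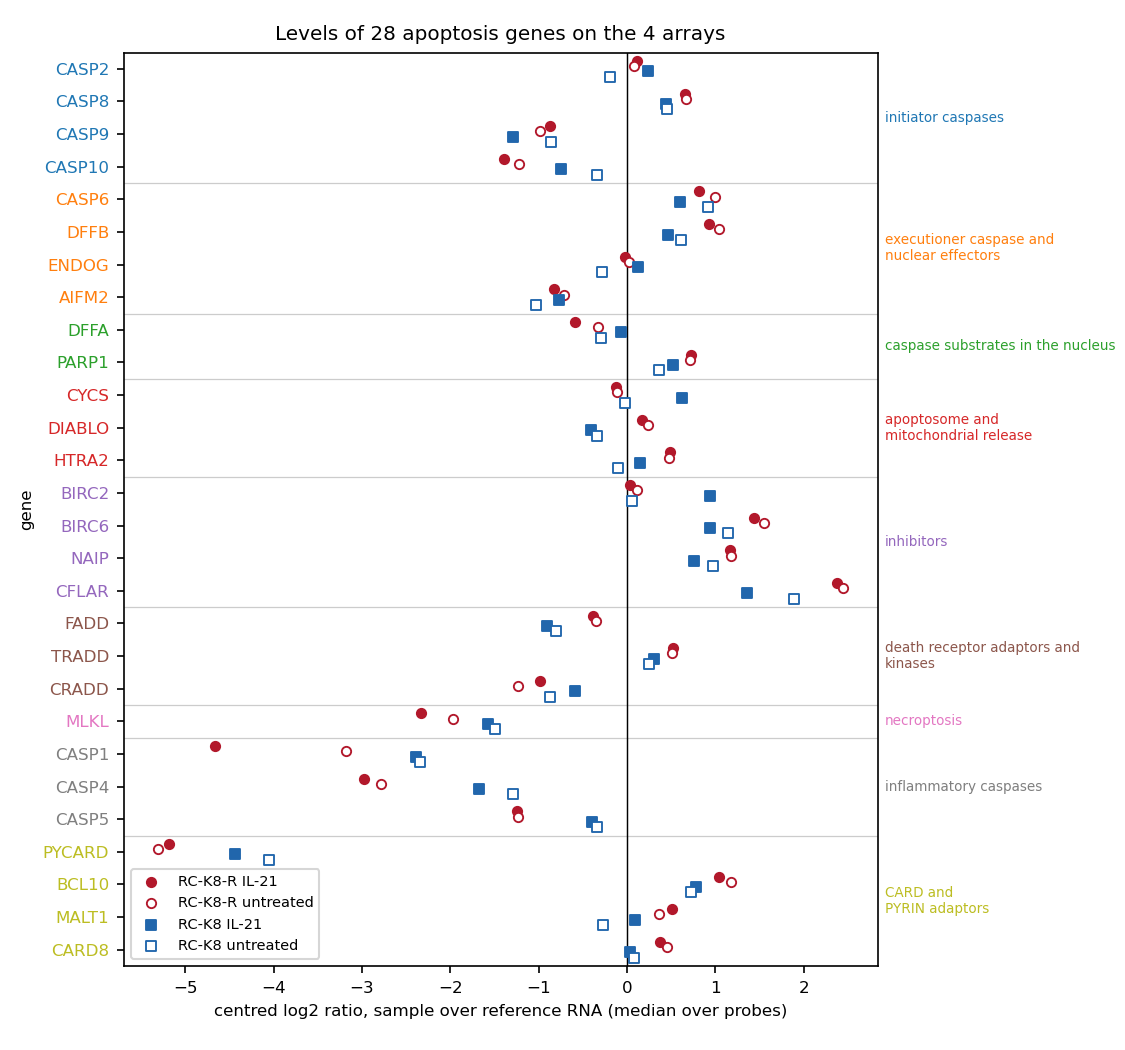
Levels of the 28 measured genes on the 4 arrays (x axis, centred log2 ratio of sample over reference RNA, median over probes), in rows by role. Filled symbols are IL-21 and open symbols untreated arrays. The arrays of most genes lie close together, and for CASP1 the treated RC-K8-R array stands apart at -4.67.

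The promoters of 5 genes with differences described below are given first. CASP1, which had the largest difference, had no promoter in the set used. The 5 are CASP4, CASP5 and PYCARD, which were lower in RC-K8-R, and BIRC2 and CYCS, whose levels were above untreated in RC-K8 given IL-21. Each runs from 250 bases before to 50 bases after the start of transcription in RefSeq, on build GRCh38.p14. CASP4 is at chr11:104968525-104968824, minus strand, CASP5 at chr11:105023119-105023418, minus strand, and PYCARD at chr16:31202711-31203010, minus strand. BIRC2 is at chr11:102346964-102347263, plus strand, and CYCS at chr7:25125211-25125510, minus strand. A further BIRC2 promoter, at chr11:102347124-102347423, is not shown and held none of the motifs below. Capitals mark the motifs searched on both strands: TTCNNNGAA, the palindrome that STAT dimers bind, the core of interferon response elements (GAAA, any 2 bases, GAAA), and CACGTG, the E-box that MYC and MAX bind.
CASP4: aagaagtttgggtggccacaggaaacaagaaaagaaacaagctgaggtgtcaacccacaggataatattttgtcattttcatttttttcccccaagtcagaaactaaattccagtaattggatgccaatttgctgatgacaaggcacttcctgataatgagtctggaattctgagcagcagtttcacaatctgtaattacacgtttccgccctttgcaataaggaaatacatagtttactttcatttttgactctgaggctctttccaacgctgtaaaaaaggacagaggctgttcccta
CASP5: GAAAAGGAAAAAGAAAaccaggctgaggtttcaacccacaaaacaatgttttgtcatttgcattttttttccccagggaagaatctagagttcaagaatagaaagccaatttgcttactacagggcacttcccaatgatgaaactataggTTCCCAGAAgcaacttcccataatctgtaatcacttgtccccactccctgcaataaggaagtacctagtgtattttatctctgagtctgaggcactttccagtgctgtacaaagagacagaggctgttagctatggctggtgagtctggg
PYCARD: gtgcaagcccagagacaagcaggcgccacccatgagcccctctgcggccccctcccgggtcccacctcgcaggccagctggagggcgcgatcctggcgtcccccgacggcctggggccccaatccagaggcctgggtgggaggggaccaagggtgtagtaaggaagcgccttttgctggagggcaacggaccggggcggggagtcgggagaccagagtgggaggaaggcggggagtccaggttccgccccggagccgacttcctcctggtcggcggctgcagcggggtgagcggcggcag
BIRC2: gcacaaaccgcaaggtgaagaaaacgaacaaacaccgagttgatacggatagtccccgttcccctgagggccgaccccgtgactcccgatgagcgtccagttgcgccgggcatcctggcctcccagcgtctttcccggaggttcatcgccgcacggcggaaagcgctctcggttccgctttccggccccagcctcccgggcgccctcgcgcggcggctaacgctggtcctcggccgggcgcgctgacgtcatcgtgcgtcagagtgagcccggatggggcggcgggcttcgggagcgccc
CYCS: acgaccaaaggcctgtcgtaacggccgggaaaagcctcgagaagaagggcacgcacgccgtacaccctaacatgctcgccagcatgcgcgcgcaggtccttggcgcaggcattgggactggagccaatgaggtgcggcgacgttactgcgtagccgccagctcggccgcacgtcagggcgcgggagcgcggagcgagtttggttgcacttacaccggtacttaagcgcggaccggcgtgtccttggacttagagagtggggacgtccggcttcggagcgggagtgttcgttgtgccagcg

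Only CASP5 among these 5 held a motif: 1 TTCNNNGAA and 2 overlapping interferon cores. These letters were not in the windows of the other 4. Among all 35116 promoters of the table, 7.66% held TTCNNNGAA, 3.57% the interferon core and 7.26% CACGTG. The table matched 28 of the 34 genes with 51 promoters, of which 5 held TTCNNNGAA (CARD8, CASP5, CASP8 and CRADD), 7 the interferon core (the same genes and RIPK1) and 2 CACGTG (DFFA and DIABLO). The CASP4 and CASP5 windows resembled each other, with 76.8% of 280 aligned bases identical, where the same alignment of CASP4 with PYCARD gave 59.0% of 244. CASP4 and CASP5 held 3 and 0 CpG dinucleotides, PYCARD 23, BIRC2 40 and CYCS 37, against a median of 14 over all promoters. A match is a description of the letters and not a binding site.

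The first question was how this machinery differed with IL-21 in each line. In RC-K8-R, 1 of the 28 genes was 2-fold lower with IL-21, CASP1, and none was 2-fold higher, where 0.945% of all genes were 2-fold different. In RC-K8, the line that dies, none of the 28 was 2-fold different, where 3.1% of all genes were. The median difference over the 28 was -0.05 in RC-K8-R, against 0.00 over all genes, and -0.04 in RC-K8, against -0.04 over all genes. At 1.5-fold, RC-K8 had 2 members higher, BIRC2 and CYCS, and none lower, where 5.82% of all genes were 1.5-fold higher and 11.8% differed by that much in either direction. RC-K8-R had CASP1 alone at 1.5-fold, against 3.29% of all genes.

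**Figure D2:**
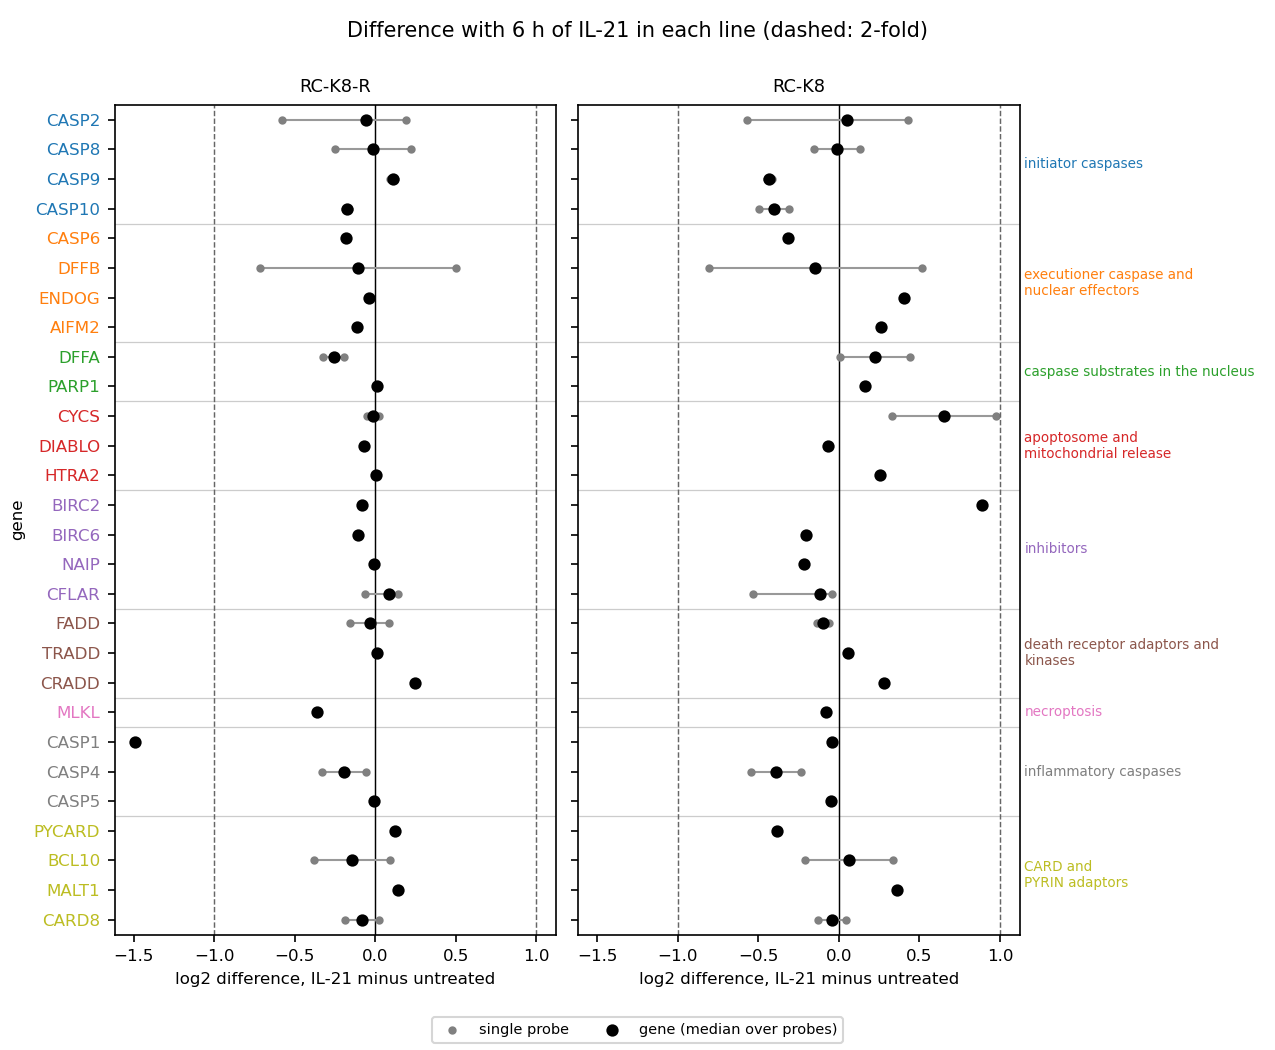
Difference with IL-21 (x axis, log2, IL-21 minus untreated) for the 28 genes in RC-K8-R (left) and RC-K8 (right). Black points are genes and grey points their probes; dashed lines mark 2-fold. CASP1 at -1.49 in RC-K8-R is the only gene past a dashed line, and BIRC2 at 0.89 and CYCS at 0.65 stand furthest right in RC-K8.

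BIRC2, a ubiquitin ligase that acts on RIPK1 and in NF-kappaB signalling and blocks death from TNF receptors, was the member with the largest positive difference. Its level was 0.04 in treated and 0.12 in untreated RC-K8-R, a difference of -0.08. In RC-K8 it was 0.94 with IL-21 and 0.05 untreated, which is 1.85-fold higher and the 271st highest difference of 13446 genes. The treated RC-K8 array therefore stood apart and the other 3 arrays lay within 0.1 of each other. BIRC2 was read by 1 probe, and its difference in RC-K8 ranged from 0.88 to 0.96 over the normalizations tried. With 1 probe, the probe summaries could not change it.

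CYCS encodes cytochrome c, which carries electrons in the respiratory chain and opens the CASP9 pathway when it reaches the cytosol, and is a known MYC target. Its level was -0.13 with IL-21 and -0.11 untreated in RC-K8-R. In RC-K8 it was 0.62 with IL-21 and -0.03 untreated, 1.57-fold higher. As for BIRC2, the treated RC-K8 array was the high one. The 2 CYCS probes both pointed up in RC-K8, at 0.97 and 0.33 (SD 0.46), so the size of the difference is uncertain. CYCS has many processed pseudogenes, and cross-hybridisation with them was not tested.

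CASP1, the protease that matures interleukin-1 beta, had a level of -4.67 with IL-21 and -3.18 untreated in RC-K8-R, 2.81-fold lower. In RC-K8 it was -2.38 with IL-21 and -2.35 untreated, a difference of -0.04. The value in RC-K8-R rests on 1 probe and on the lowest of the 4 arrays. Among the 1161 genes with a mean log2 ratio below -2, to which CASP1 belongs, 5.25% were 2-fold lower with IL-21 in RC-K8-R, against 0.602% of all genes.

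The initiator caspases showed no 2-fold difference with IL-21 in either line. CASP9 was the clearest, at -0.88 with IL-21 and -0.98 untreated in RC-K8-R (difference 0.11, SD between 2 probes 0.02), and at -1.29 with IL-21 and -0.86 untreated in RC-K8 (difference -0.43, SD 0.02). CASP10, a CASP8 relative absent from mice, had -1.40 with IL-21 and -1.22 untreated in RC-K8-R, and -0.75 with IL-21 and -0.34 untreated in RC-K8. It was thus lower by 0.18 in RC-K8-R and by 0.40 in RC-K8. CASP8 had 0.65 with IL-21 and 0.67 untreated in RC-K8-R, and 0.44 and 0.45 in RC-K8. These are medians of 2 probes whose differences were opposed in both lines. The CASP8 probes gave -0.25 and 0.22 in RC-K8-R and -0.15 and 0.13 in RC-K8, and no direction is read. CASP2 had 0.11 with IL-21 and 0.07 untreated in RC-K8-R, and 0.24 with IL-21 and -0.19 untreated in RC-K8. Its 3 probes disagreed in both lines, from -0.58 to 0.19 in RC-K8-R and from -0.57 to 0.43 in RC-K8, and no direction is read for it.

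Downstream of these, differences were small and mixed. CASP6, the executioner caspase that cuts lamins, was lower by 0.18 in RC-K8-R and by 0.32 in RC-K8. ENDOG, a mitochondrial nuclease, differed by -0.04 in RC-K8-R and by 0.40 in RC-K8, and AIFM2, a relative of apoptosis-inducing factor now known as a ferroptosis suppressor, by -0.12 and 0.26. The 2 probes of DFFB, the nuclease that cuts DNA between nucleosomes, pointed in opposite directions in both lines, at 0.50 and -0.72 in RC-K8-R and -0.81 and 0.52 in RC-K8. DFFA, its inhibitor and chaperone, differed by -0.26 in RC-K8-R and 0.22 in RC-K8, and PARP1, a DNA repair enzyme cut during apoptosis, by 0.01 and 0.16. DIABLO and HTRA2, mitochondrial proteins that displace inhibitors from caspases, differed by -0.07 and 0.01 in RC-K8-R and by -0.07 and 0.25 in RC-K8.

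Besides BIRC2, the inhibitors were lower by small amounts in treated RC-K8. BIRC6, a very large ubiquitin ligase, had 1.44 with IL-21 and 1.55 untreated in RC-K8-R, and 0.94 with IL-21 and 1.14 untreated in RC-K8. NAIP, which also senses bacterial proteins for the inflammasome, had 1.17 on both RC-K8-R arrays, and 0.76 with IL-21 and 0.97 untreated in RC-K8. NAIP lies in a duplicated stretch of the genome, and its probe may read related copies. CFLAR, which competes with CASP8 for FADD, had 2.38 with IL-21 and 2.45 untreated in RC-K8-R, and 1.36 with IL-21 and 1.89 untreated in RC-K8. Its difference as the median of 3 probes was 0.09 in RC-K8-R and -0.12 in RC-K8, where the probes ranged from -0.54 to -0.04. The 4 arrays of BIRC6, NAIP and CFLAR showed the same order of lines, with both RC-K8-R arrays above both RC-K8 arrays.

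Adaptors and kinases also differed little. FADD, the adaptor beneath death receptors, differed by -0.03 in RC-K8-R and -0.10 in RC-K8, TRADD, its counterpart at TNF receptors, by 0.01 and 0.06, and CRADD by 0.25 and 0.28. MALT1, the paracaspase of B cell receptor signalling, differed by 0.14 and 0.36, and BCL10 by -0.14 and 0.06 with its 2 probes opposed in both lines. MLKL, which perforates the membrane in necroptosis, was lower by 0.36 in RC-K8-R and by 0.08 in RC-K8. Of these values none reached 1.5-fold.

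Taking the response of RC-K8-R minus that of RC-K8, 1 of 28 members differed 2-fold, CASP1 (-1.45), where 4.77% of all genes did. At 1.5-fold 3 members were lower, CASP1, BIRC2 (-0.97) and CYCS (-0.66), where 8.13% of all genes were, and CASP9 (0.54) and PYCARD (0.50) had the highest values. These values combine all 4 arrays. The CYCS probes gave -1.02 and -0.30 (SD 0.51) and the CASP9 probes 0.51 and 0.57 (SD 0.04), while CASP1, BIRC2 and PYCARD had 1 probe each. The BIRC2 value was -1.04 after quantile normalization and -1.02 with arrays set to equal spread, past the 2-fold threshold in both.

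The next question was what set RC-K8-R apart from RC-K8. With IL-21, 2 of the 28 genes were 2-fold lower in RC-K8-R, CASP1 and CASP4, and none was 2-fold higher, where 17.8% of all genes were 2-fold different, 10.3% lower and 7.47% higher. Untreated, 2 were 2-fold lower, CASP4 and PYCARD, and none was 2-fold higher, against 13.5% of all genes, 10.2% lower and 3.35% higher. The share of members at 2-fold was thus below that of all genes in both conditions. The median difference over the 28 was 0.21 with IL-21 and 0.24 untreated, against -0.03 and 0.05 over all genes. After a loess correction of each difference on level these medians were 0.05 and 0.01.

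**Figure D3:**
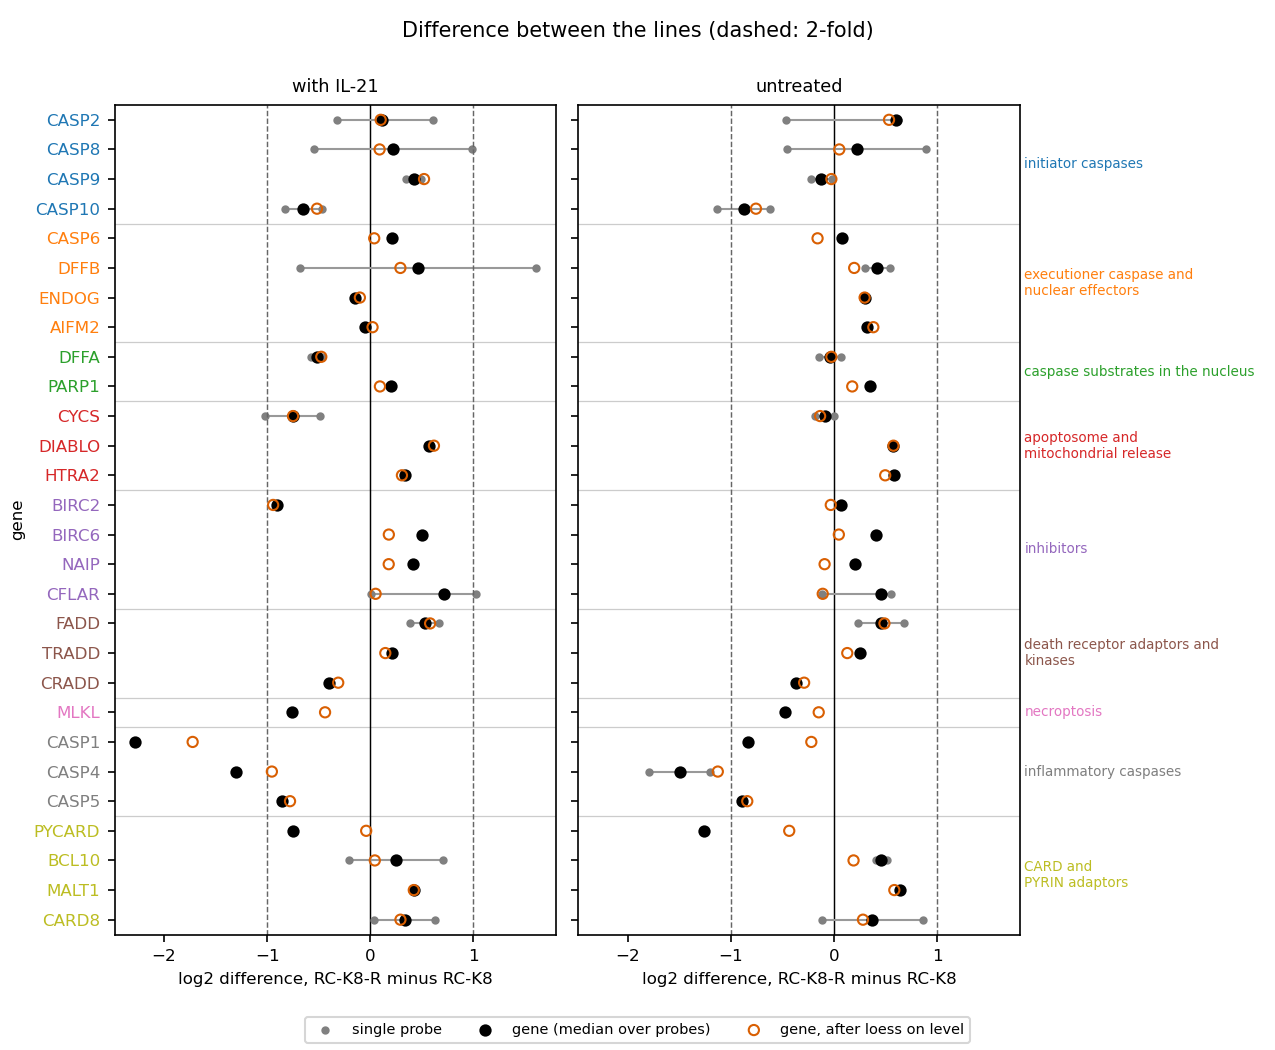
Difference between the lines (x axis, log2, RC-K8-R minus RC-K8) with IL-21 (left) and untreated (right). Black points are genes, grey points their probes and open orange points the gene after the loess correction; dashed lines mark 2-fold. The rows of CASP1, CASP4, CASP5 and PYCARD lie left of 0 in both panels, while most apoptosis genes lie slightly right of it, and with the correction PYCARD is at -0.04 with IL-21 and -0.43 untreated.

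CASP1, CASP4, CASP5 and PYCARD were each lower in RC-K8-R in both conditions, as were CASP10, MLKL and CRADD. CYCS and DFFA were lower with IL-21. Untreated they were at -0.09 and -0.04 with probes of opposite sign, and no direction is read there. CASP4, which senses bacterial lipopolysaccharide in the cytosol, had levels of -2.97 with IL-21 and -2.78 untreated in RC-K8-R, and of -1.68 with IL-21 and -1.29 untreated in RC-K8. It was 2.46-fold lower in RC-K8-R with IL-21, where both probes gave -1.30, and 2.82-fold lower untreated, with probes at -1.20 and -1.79 (SD 0.42). Both RC-K8-R arrays lay below both RC-K8 arrays. After loess the differences were -0.95 and -1.13, so with IL-21 the gene no longer passed 2-fold.

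CASP5, a close relative of CASP4, had -1.24 on both RC-K8-R arrays, and -0.39 with IL-21 and -0.34 untreated in RC-K8. That is 1.80-fold lower with IL-21 and 1.86-fold lower untreated, on 1 probe. Its differences lay between -0.73 and -0.90 over the normalizations tried, and the probe summaries could not change them. CASP1 was 4.87-fold lower with IL-21 and 1.78-fold lower untreated. The untreated difference of -0.83 was -0.22 after loess, whereas the treated one of -2.28 was -1.72. The treated RC-K8-R array, which holds the lowest CASP1 value, enters both this comparison and the IL-21 comparison of RC-K8-R.

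PYCARD encodes ASC, the adaptor that joins inflammasome sensors to CASP1. Its levels were -5.19 with IL-21 and -5.31 untreated in RC-K8-R, and -4.43 with IL-21 and -4.05 untreated in RC-K8. Both RC-K8-R arrays were lower, by 0.75 with IL-21 and 1.26 untreated, but these differences were -0.04 and -0.43 after loess, and that with IL-21 was 0.04 after quantile normalization. Of the 1161 genes with a mean ratio below -2, which include CASP1, CASP4 and PYCARD, 32% were 2-fold lower in RC-K8-R with IL-21 and 34.8% untreated.

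Other genes of the same branch, from a list of 19 CARD and inflammasome genes of which 13 were measured, gave 3 at 2-fold lower and 2 higher with IL-21, and 3 lower and none higher untreated. Over all genes 10.3% were 2-fold lower and 7.47% higher with IL-21, and 10.2% lower and 3.35% higher untreated. The lower ones were the same in both conditions: CARD16, a CARD-only relative of CASP1 that can block it (-1.87 with IL-21 and -1.48 untreated), MEFV, the pyrin gene (-1.65 and -1.08), and IL1B, the precursor that CASP1 cuts (-1.29 and -1.07). The higher ones with IL-21 were GSDME (1.76) and GSDMD (1.06), whose products form pores when cut, and these were at 0.55 and 0.82 untreated. The list's median was -0.25 with IL-21 and -0.34 untreated, and -0.07 and -0.21 after loess. CASP1, CASP4, CASP5 and CARD16 are related in sequence, and cross-reading between their probes was not tested.

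Myeloid markers, the defining genes of cells rich in this branch, were also lower on the RC-K8-R arrays. Of 10 markers 5 were measured. All 5 were lower in RC-K8-R with IL-21, and 4 were lower untreated, where CSF1R differed by 0.01. Median levels were -0.73 with IL-21 and -0.65 untreated in RC-K8-R, and 0.19 and 0.07 in RC-K8. Single markers ranged from -2.33 to 0.08 on the RC-K8-R arrays and from -1.59 to 0.83 on those of RC-K8. Their median difference was -0.73 with IL-21 and -0.93 untreated, next to -1.06 and -1.19 for T and NK cell markers and -1.13 and -1.12 for epithelial markers, -1.69 and -0.99 for fibroblast markers and -0.80 and -0.95 for hepatocyte markers. After loess these medians were -0.41 and -0.59 for myeloid, -0.76 and -0.98 for T and NK cell and -0.49 and -0.40 for epithelial markers. They were -0.99 and -0.41 for fibroblast and -0.03 and -0.05 for hepatocyte markers. B cell markers went the other way, with 7 of 8 higher in RC-K8-R in each condition. Their median difference was 1.69 with IL-21 and 0.71 untreated, and 0.93 and 0.33 after loess. Both cultures are of a B-cell lymphoma line, so the markers of other cell types are not read as counts of such cells. The part of these marker shifts in the lower inflammasome genes was not tested. In RNA from whole cultures, fewer cells that express a gene and less RNA per cell cannot be told apart.

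CASP4, CASP5, CASP1 and CARD16 follow each other on chromosome 11, in that order in the RefSeq gene table (GRCh38.p14, used for order only). All 4 were lower in RC-K8-R in both conditions. Of the 20 protein-coding genes on either side of CASP1, 18 besides these 4 genes were measured, of which 11 were below 0 with IL-21 and 7 untreated, with median differences of -0.24 and 0.06. Of those, 1 was 2-fold lower in each condition, EXPH5, the last gene of the window, and 3 were 2-fold higher. The higher ones were DYNC2H1, NPAT and ATM with IL-21, and DYNC2H1, PDGFD and ATM untreated. Over all genes 10.3% were 2-fold lower and 7.47% higher with IL-21, and 10.2% lower and 3.35% higher untreated. DYNC2H1, a cilia motor gene and the nearest measured neighbour but one on the CASP4 side, was at 3.86 and 2.63. BIRC2, further along that side, was at -0.90 and 0.07.

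**Figure D4:**
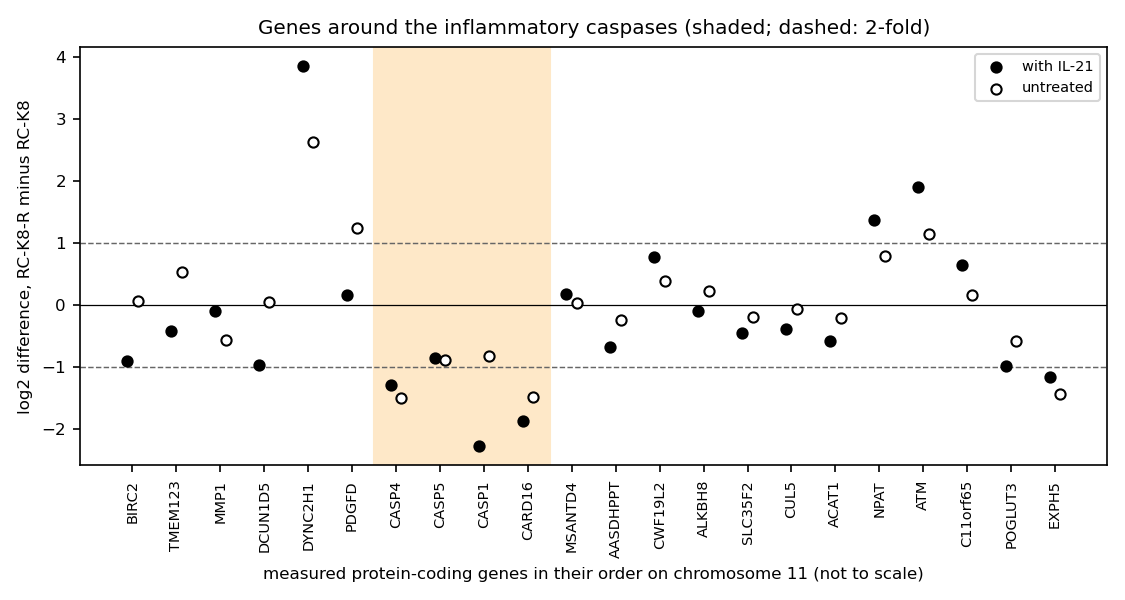
Difference between the lines (y axis, log2, RC-K8-R minus RC-K8) for the 22 measured genes among the 20 protein-coding genes on each side of CASP1 and CASP1 itself, in chromosomal order and not to scale. Filled points are with IL-21 and open points untreated; the shaded CASP4, CASP5, CASP1 and CARD16 are all below 0, between genes on either side that scatter around it.

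The initiator caspases did not differ in one direction between the lines. CASP10 was lower in RC-K8-R by 0.65 with IL-21 (SD between 2 probes 0.25) and by 0.88 untreated (SD 0.37), and both its probes agreed in sign in each condition. CASP8 was 0.22 higher in both conditions as a median, from probes that disagreed, at 0.98 and -0.55 with IL-21 and at 0.89 and -0.45 untreated. CASP9 was 0.42 higher with IL-21 and 0.12 lower untreated. CASP2 was at 0.11 and 0.60, with probes of both signs. CFLAR, CASP10 and CASP8 are direct neighbours on chromosome 2, and CFLAR was higher, by 0.71 and 0.46, where CASP10 was lower.

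The inhibitors were slightly higher in RC-K8-R apart from BIRC2. BIRC6 was 0.50 higher with IL-21 and 0.41 untreated, and NAIP 0.41 and 0.20. CFLAR probes ranged from 0.01 to 1.02 with IL-21 and from -0.12 to 0.55 untreated. After loess these shifts were small: BIRC6 was at 0.18 and 0.05, NAIP at 0.18 and -0.09 and CFLAR at 0.05 and -0.11, so the signs of NAIP and CFLAR turned in the untreated comparison, as did that of BIRC2 (-0.03). BIRC2 was 1.87-fold lower in RC-K8-R with IL-21 and within 0.1 untreated, which restates that its treated RC-K8 array was the high one.

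The mitochondrial proteins DIABLO and HTRA2 were higher in RC-K8-R, DIABLO by 0.57 in both conditions and HTRA2 by 0.33 with IL-21 and 0.58 untreated, each on 1 probe. CYCS was lower by 0.75 with IL-21, and untreated it was at -0.09 with probes of opposite sign (-0.18 and 0.00). FADD was higher by 0.53 and 0.46, with both probes of one sign, and loess left it at 0.58 and 0.49. MALT1 was higher by 0.42 and 0.64 and BCL10 by 0.25 and 0.46. MLKL was lower by 0.76 and 0.47. Of this group MALT1 untreated was past 1.5-fold higher, and CYCS and MLKL with IL-21 past 1.5-fold lower, where 13.6% of all genes were 1.5-fold higher and 20.6% lower untreated (34.1% in all), and 18% higher and 22.6% lower with IL-21 (40.6% in all).

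RIPK3, the kinase that activates MLKL, could be read on 3 arrays. Its level was 2.68 in treated and 2.13 in untreated RC-K8-R, and 1.05 in untreated RC-K8, and the treated RC-K8 array was blank. Untreated RC-K8-R was thus 1.08 above untreated RC-K8 on 1 probe. AIFM1, the apoptosis-inducing factor, was 0.27 higher in treated RC-K8-R than in treated RC-K8, at 0.44 and 0.18, and its probe was blank on untreated RC-K8.

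Pro-death genes were then set against inhibitors. The pro-death genes were the initiator caspases, CASP6 with the nuclear effectors, and the mitochondrial release genes, and 11 of 13 were measured. This set includes AIFM2, described above as a ferroptosis suppressor. The inhibitors numbered 4 of 6. With IL-21 in RC-K8-R the medians were -0.06 for pro-death genes and -0.04 for inhibitors, and in RC-K8 -0.01 and -0.16. For the response of RC-K8-R minus that of RC-K8 they were -0.00 and 0.15. Between the lines they were 0.21 and 0.46 with IL-21 and 0.30 and 0.30 untreated. The ranges of both sets overlapped in all 5 comparisons. Pro-death minus inhibitor medians were -0.02 in RC-K8-R with IL-21, 0.15 in RC-K8 with IL-21, -0.16 for the difference of responses, -0.24 between the lines with IL-21 and -0.01 untreated. After loess the value between the lines was -0.02 with IL-21 and 0.26 untreated. No error is available for these medians, and no difference between the sets is read from them.

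**Figure D5:**
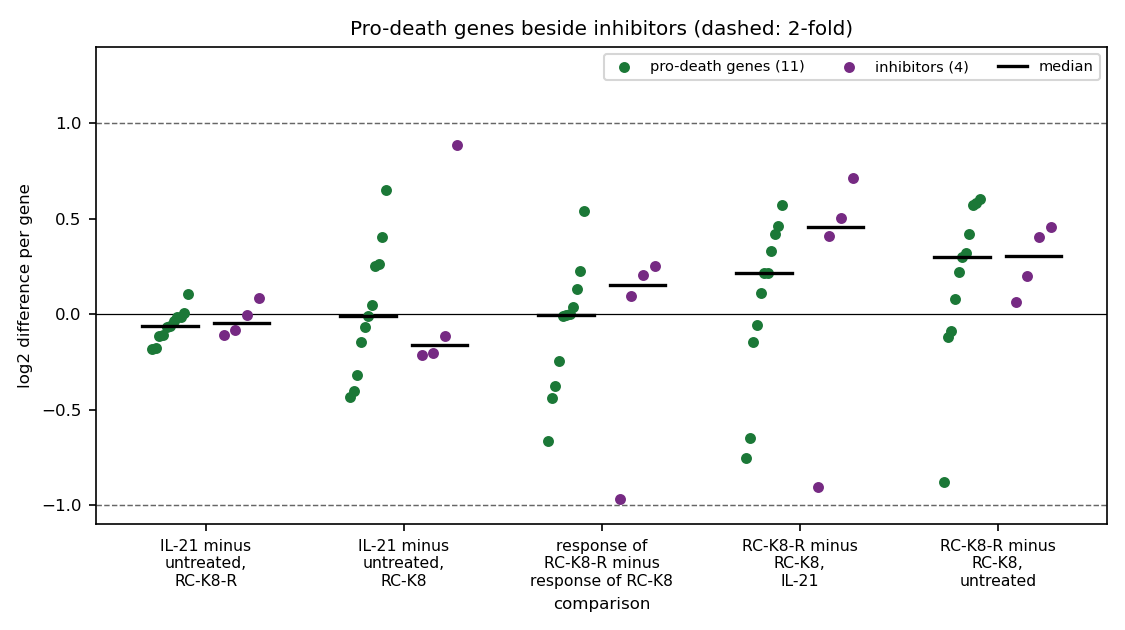
Log2 difference per gene (y axis) for 11 pro-death genes and 4 inhibitors in the 5 comparisons (x axis); black bars are medians and dashed lines 2-fold. The sets overlap in every comparison, and BIRC2 is the inhibitor that stands away from the other 3 in RC-K8 with IL-21, in the difference of responses and between the lines with IL-21.

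A wider list of 60 apoptosis pathway genes, 44 of them measured, was read in the same way. With IL-21 in RC-K8-R none was 2-fold different, where 0.945% of all genes were. In RC-K8 2 were, against 3.1% of all genes. SERPINB9, which inhibits granzyme B, was higher (1.18, with levels of 1.76 with IL-21 and 1.58 untreated in RC-K8-R, and 1.72 with IL-21 and 0.58 untreated in RC-K8), and the death receptor TNFRSF21 was lower (-1.16, with levels of 0.84 with IL-21 and 0.80 untreated in RC-K8-R, and -0.81 with IL-21 and 0.35 untreated in RC-K8). From the CARD and inflammasome list, GSDME was lower in RC-K8 with IL-21 (-1.29). The treated RC-K8 array was again the one that stood apart for TNFRSF21 and GSDME, while for SERPINB9 the untreated RC-K8 array was the low one.

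Between the lines, 5 of the 44 were 2-fold higher in RC-K8-R with IL-21 and 1 lower, and 3 were higher and 2 lower untreated. Over all genes 7.47% were 2-fold higher and 10.3% lower with IL-21, and 3.35% higher and 10.2% lower untreated. OTULIN, which removes linear ubiquitin chains, was higher by 1.83 with IL-21 and 1.52 untreated, and STK4, a kinase cut by caspases, by 1.78 and 1.45. TNFRSF21 (1.65), USP11 (1.30) and TRAF1 (1.15) were 2-fold higher with IL-21 alone, and SERPINB9 (1.20) untreated alone. BIRC7, an inhibitor of apoptosis protein known from melanoma, was lower by 1.25 and 1.22, and CASP14, the caspase of skin cornification, by 1.03 untreated. BIRC5, the survivin gene, was at -0.29 and -0.26, and the death receptor FAS at 0.45 and 0.24. The list's median was 0.19 with IL-21 and 0.15 untreated, and 0.03 and -0.002 after loess.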

How the data were processed

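RNA of 4 samples was measured on two-colour Agilent arrays, 1 per group. The authors deposited 1 log ratio per probe and array, read here as log2 of sample (Cy5) over reference (Cy3) from the dyes in the labels. The log base and the centring are not stated, and the values do not settle log2 against natural log; under the latter each fold would be larger and each direction the same. For the scanner and the array normalization, nothing is given in the sources used here. Deposited array medians ran from -0.123 to -0.106.

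Centring subtracted, per array, the median of the 23260 probes present on every array. The platform annotation gave 1 symbol for 25570 probes and several for 28, which were not used, and left 5497 unnamed; 25541 matched RefSeq (GRCh38.p14) by Entrez number. Differences were taken per probe and summarised by the median per gene, which gave 13446 genes, 9067 of them from 1 probe. The steps were tested on simulated arrays. No test was possible with 1 array per group, and the number of arrays limits the precision. Values on all 4 arrays were given for members at 2-fold in any comparison and for all measured inhibitors and initiator caspases, and the others by range. Motif and identity counts came from RefSeq promoters. The members and lists were chosen with earlier results of these data known. There were 12 alternatives for the counts of genes; loess used a span of 0.3 and 3 iterations. Tools were Python 3.11.15, pandas 2.3.3, numpy 2.4.6, statsmodels 0.14.6, Biopython 1.88 and matplotlib 3.10.9.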

Additional observations from a re-analysis of the deposited data

Results flagged for a closer look

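The IL-21 responses of 2 genes pointed in opposite directions in the lines, with each value larger than the median SD between probes. All probes of the gene agreed in sign, whatever their size. DFFA differed by -0.26 in RC-K8-R and by 0.22 in RC-K8, a difference of responses of -0.48. Its probes gave -0.32 and -0.20 in RC-K8-R and 0.44 and 0.00 in RC-K8. The higher DFFA value in RC-K8 thus rests on 1 probe. PYCARD differed by 0.12 in RC-K8-R and by -0.38 in RC-K8, a difference of responses of 0.50, on 1 probe with a mean log2 ratio of -4.75. Its value in RC-K8-R was 0.27 and in RC-K8 -0.17 after quantile normalization, and 0.17 and -0.18 after loess, with differences of responses of 0.43 and 0.35. For DFFA the probe with the higher mean ratio gave -0.33. With 1 array per group neither difference was tested, and neither gene was 2-fold different with IL-21 in either line.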

How the results depend on the processing

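The count of members at 2-fold with IL-21 in RC-K8 was 0, and was 2 at 1.5-fold and 1 with values read as natural logs. In RC-K8-R it was 1, and 0 at 3-fold or among genes with a mean log ratio of -2 or more. For the difference of responses it was 1, and 3 at 1.5-fold, 0 at 3-fold, 0 among genes at -2 or more, and 2 under each of quantile normalization, equal median absolute deviation, the probe with the highest mean ratio and natural logs. Between untreated lines it was 2, and 7 at 1.5-fold, 0 at 3-fold, 0 at -2 or more, 5 with natural logs, and 1 under each of quantile normalization, equal deviation and loess, where CASP4 stayed past 2-fold and PYCARD did not. Between treated lines it was 2, and 9 at 1.5-fold, 1 at 3-fold, 0 at -2 or more, 8 with natural logs, and 1 under each of quantile normalization, equal deviation and loess, where CASP1 stayed and CASP4 did not. Changes with the threshold or the set of genes follow from their construction; for the normalizations the cause was not tested. The settings without centring, with the mean of the probes, with genes valued on the arrays compared and with probes of one direction kept each count within 1.5 times. Genes valued on the arrays compared added RIPK3 as 2-fold higher between untreated lines. The probe with the highest mean ratio added DFFB as higher between treated lines and CASP10 as lower between untreated lines. Pro-death minus inhibitor medians lay between -0.35 and -0.02 for treated lines, -0.01 and 0.26 for untreated lines, -0.03 and 0.01 with IL-21 in RC-K8-R, 0.11 and 0.21 in RC-K8, and -0.23 and -0.06 for the difference of responses; their sign is not read. Of 1120 single-gene values recomputed, 1066 moved by less than a limit and 54 by more. Of these 54, 22 came with natural logs and 13 with loess, and no 2-fold value changed sign. The limit was the median SD between probes over genes, or the gene's own SD where larger. It was wide for genes with opposed probes, such as DFFB (SD 1.80 for the difference of responses). Leaving out centring shifted all genes alike. The mean or choice of probes could not change the 16 single-probe genes. Part of this agreement was thus fixed in advance. No paired analysis was possible because each group had 1 array. Spot intensities were not used here, so signal over background is unknown, and genes far below the reference are the least certain.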

Other observations

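Some members had values that could enter no comparison. XIAP, the inhibitor that binds CASP9 directly, was read on 1 array, treated RC-K8-R, at a level of 2.27. APAF1, the scaffold of the apoptosome, likewise had 0.42 on that array alone. Further probes of measured genes were blank on some arrays. One of CARD8, a CASP1-activating sensor, had 1.16 (IL-21) and 1.07 (untreated) for RC-K8-R and -0.51 for RC-K8 with IL-21, and was blank on untreated RC-K8. A further CARD8 probe had 1.98 and 1.68 on the treated and untreated RC-K8-R arrays and was blank on both RC-K8 arrays. One CASP8 probe had 1.21 and 1.48 on the same RC-K8-R arrays and was likewise blank in RC-K8. What a blank cell stands for is not stated with the values, and no level is read from it.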
